A study of Mus musculus with 6 samples.

Results

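The genes described here encode 10 surface proteins by which mouse B cell subsets are told apart in flow cytometry. They are Fcer2a, Cd38 and Cd55, which are high on follicular B cells, Cd1d1 and Cd9, which mark marginal zone B cells, Cd93 and Cd24a, which mark immature and transitional B cells, Nt5e, which marks memory B cells, and the broadly expressed B cell genes Ms4a1 and Cd37. The members were chosen by symbol, and each symbol matched 1 of the 39179 Ensembl gene identifiers in the data. RNA-Seq was performed on B cells taken from the Peyer's patches, lymphoid organs in the wall of the small intestine, of female WT C57BL/6 mice aged 12 wk. There were 3 pools of germinal center (GC) B cells, sorted as Fas+ GL7+, and 3 pools of naive B cells, sorted as Fas- GL7-, and each pool was made from 5 mice. None of the 10 proteins was used in the sort. The gate of the naive pools was set by the absence of Fas and GL7, which does not by itself separate naive from memory B cells. Because each pool is a bulk sample, fewer cells that express a gene and less RNA per cell cannot be told apart.

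B cells that recirculate through follicles, B cells held in the marginal zone and B cells that have entered the GC differ in the proteins they show on the membrane, and these proteins serve as receptors, ectoenzymes and membrane organizers. CD23, the product of Fcer2a, is the low-affinity receptor for IgE. CD38 consumes extracellular NAD, CD73 (Nt5e) converts extracellular AMP to adenosine, CD55 accelerates the decay of complement convertases, and CD1d presents lipids to NKT cells. CD9 and CD37 are tetraspanins, which gather other membrane proteins into domains, and CD20 (Ms4a1) is a tetraspanning protein of the MS4A family associated with the B cell receptor. In mice, loss of CD38 from the surface is a common criterion for GC B cells.

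Expression was deposited as FPKM, a read density scaled to transcript length and library size, and was rescaled here to TPM, which sums to the same total in every pool. A TPM value is thus a share of the RNA measured in a pool and not an amount per cell. The low FPKM values move in steps of single reads, and the depth read from these steps was about 9900000 to 11000000 reads in the GC pools and 9800000 to 16200000 in the naive pools. Between 62.5% and 68.2% of these low values lay within 0.1 of a whole read, so the depths are approximate. The labels matched their markers, since Bcl6, the transcription factor of the GC program, was at 242 to 258 TPM in GC and 46.9 to 51.6 TPM in naive pools, and S1pr2, which retains B cells in the GC, at 261 to 272 TPM and 0.671 to 0.999 TPM. Cd79a, a chain of the B cell receptor, was at 1057 to 1099 TPM in GC and 2319 to 2402 TPM in naive pools. Among markers of other cells, 5 of 8 epithelial genes (Krt8, Krt19, Krt20, Epcam and Vil1) exceeded 10 TPM in at least 1 pool, and the 8 genes summed to between 29.0 and 49.5 TPM in GC and to between 58.6 and 92.0 TPM in naive pools, with none at 0 throughout. The epithelial genes did not share 1 direction. Of 7 tested by limma, 4 were called lower in GC B cells, 2 higher (Krt18 and Lgr5) and 1 was not called. Lgr5 reached 1 TPM only in the GC pools. Of the T cell and plasma cell markers, Lck (127 to 136 TPM in GC, 64.1 to 66.9 TPM in naive pools) and Jchain, listed as Igj (656 to 693 and 22.1 to 40.3 TPM) exceeded 10 TPM. The other 6 T cell markers were at most 1.83 TPM (Cd4) in any pool. Of the other 3 plasma cell markers, Prdm1 was higher in GC B cells (5.01 ± 0.280 TPM against 0.955 ± 0.107 TPM, SD, n = 3 each, adjusted p = 3.77e-05 in limma), Sdc1 was lower (0.927 to 1.95 TPM against 2.62 to 3.66 TPM), and Tnfrsf17 was at most 0.193 TPM. The summed markers of macrophages, stroma, endothelium, platelets and erythroid cells were at most 7.57 TPM in any pool.

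Promoter sequences are shown for the 4 genes with the strongest shifts among those with a RefSeq promoter window (GRCm38.p6), 3 that were lower and 1 that was higher in GC B cells. Windows were matched for 6 of the 10 genes and not for Cd1d1, Cd24a, Cd93 and Ms4a1. Each line gives the 250 bases before a transcription start, 5′ to 3′ on the gene's strand, at chr8:3694175-3694424 (minus strand) for Fcer2a, chr5:43868559-43868808 (plus) for Cd38, chr1:130462745-130462994 (minus) for Cd55, and chr9:88327359-88327608 (plus) for Nt5e. Capitals mark matches on either strand to the motifs of RBPJ (TGGGAA), PU.1 (GAGGAA), E proteins (CAGGTG), STAT and BCL6 (TTCNNNGAA), the octamer (ATGCAAAT), KLF factors (CACCC) and CRE (TGACGTCA).
Fcer2a: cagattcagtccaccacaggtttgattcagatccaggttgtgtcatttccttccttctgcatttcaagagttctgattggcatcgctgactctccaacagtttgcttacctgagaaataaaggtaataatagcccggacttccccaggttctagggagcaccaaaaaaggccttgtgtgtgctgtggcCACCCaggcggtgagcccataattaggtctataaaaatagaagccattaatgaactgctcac
Cd38: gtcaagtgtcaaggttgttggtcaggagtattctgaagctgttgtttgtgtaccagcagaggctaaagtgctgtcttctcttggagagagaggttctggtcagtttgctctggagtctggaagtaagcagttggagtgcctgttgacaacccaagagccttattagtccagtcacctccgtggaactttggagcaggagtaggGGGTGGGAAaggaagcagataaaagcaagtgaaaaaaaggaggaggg
Cd55: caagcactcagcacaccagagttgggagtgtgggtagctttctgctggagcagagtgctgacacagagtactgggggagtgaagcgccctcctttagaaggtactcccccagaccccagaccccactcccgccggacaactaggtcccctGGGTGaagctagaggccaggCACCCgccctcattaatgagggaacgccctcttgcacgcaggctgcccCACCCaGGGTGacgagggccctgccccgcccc
Nt5e: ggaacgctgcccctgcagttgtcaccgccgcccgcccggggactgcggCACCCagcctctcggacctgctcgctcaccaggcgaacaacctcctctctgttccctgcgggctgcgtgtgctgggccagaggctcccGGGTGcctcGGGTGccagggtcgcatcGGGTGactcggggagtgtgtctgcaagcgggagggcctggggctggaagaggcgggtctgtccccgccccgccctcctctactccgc

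The Fcer2a sequence is the most upstream of 3 windows for this gene, and the Cd55 window lies inside the span of the annotated gene. Among these 7 motifs, the windows printed for Fcer2a, Cd55 and Nt5e matched the KLF motif alone, with 1 match in Fcer2a and 4 each in Cd55 and Nt5e. The Cd38 window held an RBPJ match at -44 to -39 from the start, which overlapped a KLF match at -47 to -43. Over all windows of the 6 genes, the KLF motif was present in 6 genes, the RBPJ and E protein motifs in 3 genes each, and the PU.1 motif in 1 gene. Of all 32851 windows of the same length, 52% held the KLF motif, 21.6% the RBPJ motif, 17.2% the E protein motif and 23.3% the PU.1 motif. These shares are per window, whereas a gene was counted if any of its windows held the motif. The RBPJ and E protein matches of Fcer2a lay in its windows that are not printed. No match to the STAT and BCL6, octamer or CRE letters was found, which occur in 7.02%, 1.6% and 1.55% of all windows. The Nt5e window was richest in G and C (72%, with 21 CpG), and the Fcer2a window poorest (46%, with 3 CpG).

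All 10 genes reached the filter of 1 TPM in at least 3 pools, and limma called 7 of them lower and 3 higher in GC B cells at a Benjamini-Hochberg adjusted p under 0.05. Of the 12785 genes tested, 65.6% were called, 30.1% as lower and 35.5% as higher. In all 10 genes the ranges of both populations were apart, which held for 70.7% of all genes tested. Of these genes, Nt5e passed the filter only through the GC pools and Cd93 only through the naive pools, and Cd1d1 reached 1 TPM in 1 GC pool. Such genes had to differ to be tested, so the count over the 10 is a description.

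**Figure D1:**
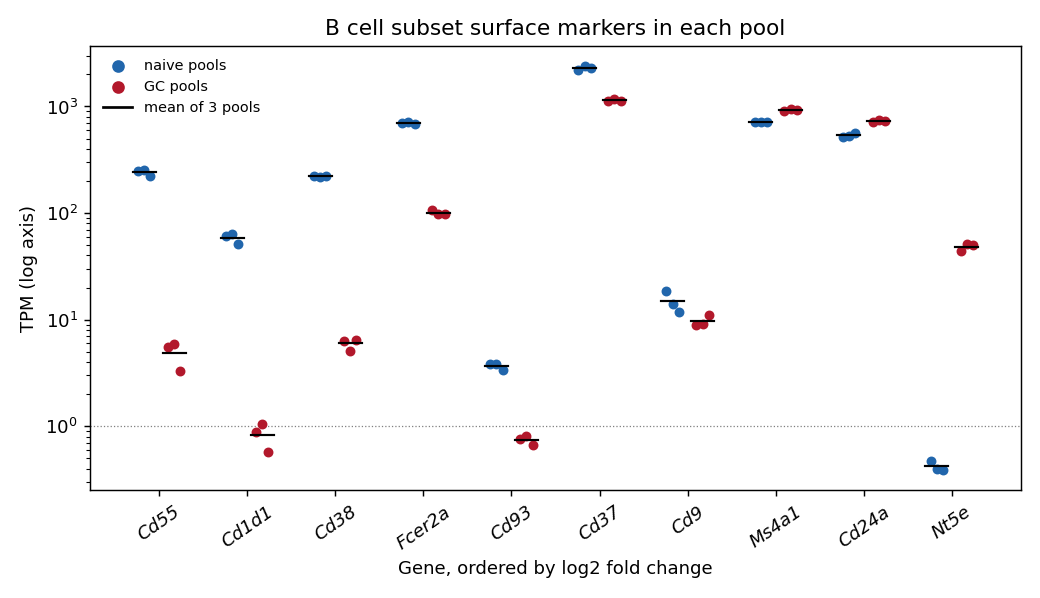
Expression of the 10 surface marker genes in each pool (TPM, log axis), with naive pools in blue, GC pools in red and the mean of 3 pools as a black bar. Cd55, Cd1d1 and Cd38 lie at least 33.6-fold lower in every GC pool than in any naive pool, Nt5e lies at 44.5 to 50.7 TPM in GC and below the dotted line at 1 TPM in naive pools, and Cd37, Cd9, Ms4a1 and Cd24a differ by at most 2.01-fold between the means.

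The follicular markers were lower in GC B cells, each by a different factor. Fcer2a (ENSMUSG00000005540, chr8:3680280-3694174, GRCm38) was at 107, 98.7 and 97.5 TPM for the GC pools in the order of their replicate numbers, and at 696, 715 and 680 TPM for the naive pools. Every naive pool was thus at least 6.37-fold above every GC pool. The difference was -2.78 on the log2(TPM + 1) scale (SE 0.0489, adjusted p = 1.71e-07 in limma), and Fcer2a was still the fourth highest of the 10 genes in GC B cells.

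Cd38 (ENSMUSG00000029084, chr5:43868809-43912374) fell much further than Fcer2a. It was at 6.35, 5.08 and 6.48 TPM across the GC pools and at 223, 218 and 223 TPM in the naive pools. The ratio of means was 37.1, and between single pools it ranged from 33.6 to 44.0. On the log2 scale the difference was -5.00 (SE 0.0906, adjusted p = 1.89e-07 in limma), and the CV was 12.97% among GC pools and 1.41% among naive pools.

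Cd55 (ENSMUSG00000026399, chr1:130429798-130465009), whose product protects the cell from complement, had the largest decrease of the 10 on the log2(TPM + 1) scale, whereas by the ratio of means (49.3) it came after Cd1d1 (69.7), as it did with a pseudocount of 0.1 (-5.64 against -5.99). It was at 5.55, 5.87 and 3.26 TPM across the GC pools and at 247, 255 and 222 TPM in the naive pools. GC replicate 3 was the lowest, and the CV among GC pools was 29.1%. The log2 difference was -5.39 (SE 0.187, adjusted p = 1.56e-06 in limma), larger in size than that of 99.5% of the genes tested. Cd38 and Cd55 stood side by side in both populations, and their pool ranges overlapped in GC (5.08 to 6.48 and 3.26 to 5.87 TPM) and in naive B cells (218 to 223 and 222 to 255 TPM).

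The marginal zone markers Cd1d1 and Cd9 were both lower in GC B cells but by very different amounts. Cd1d1 (ENSMUSG00000028076, chr3:86995834-87012358) was at 0.882, 1.05 and 0.571 TPM across the GC pools, which corresponds to only about 7 to 13 reads in each, and at 60.6, 63.2 and 50.7 TPM in the naive pools. The ratio of means was 69.7, with a wide range between single pools (48.2 to 110.7), and the log2 difference was -5.01 (SE 0.140, adjusted p = 6.69e-07 in limma). The pseudocount understates changes of genes this low, and with 0.01 in its place the difference was -6.14. The neighbouring paralog Cd1d2, with which reads can be shared, was listed at 0 in 5 pools and at 0.342 TPM in the other. In GC B cells the range of Cd1d1 overlapped that of Cd93.

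Cd9 (ENSMUSG00000030342, chr6:125460266-125494760) differed least firmly. It was at 8.89, 9.07 and 11.0 TPM across the GC pools and at 18.4, 14.2 and 11.9 TPM in the naive pools. The groups did not overlap, but GC replicate 3 and naive replicate 3 were only 1.09-fold apart. The log2 difference was -0.56 (SE 0.169, adjusted p = 0.0252 in limma, 95% interval -0.97 to -0.15). The adjusted p in limma was 0.0757 without GC replicate 1 and 0.0711 without GC replicate 2. It was 0.0533 without naive replicate 1 and 0.0579 without naive replicate 2, so the call was lost in each of these fits. The call was kept without GC replicate 3 (0.0295) and without naive replicate 3 (0.0123). Each of these fits had fewer pools, so a lost call need not rest on the pool left out. Cd9 is also expressed by epithelial cells, and the 8 epithelial markers summed to 29.0, 49.5 and 39.3 TPM in GC replicates 1, 2 and 3 and to 92.0, 58.6 and 66.7 TPM in naive replicates 1, 2 and 3. Naive replicate 1 was highest and GC replicate 1 lowest in both measures, while replicates 2 and 3 stood in the opposite order for Cd9 and for the epithelial sum within each population. The quotient of Cd9 to the summed epithelial markers was 0.183 to 0.307 in GC and 0.179 to 0.241 in naive pools, ranges that overlap. The part of epithelial RNA in the Cd9 difference was not tested.

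**Figure D2:**
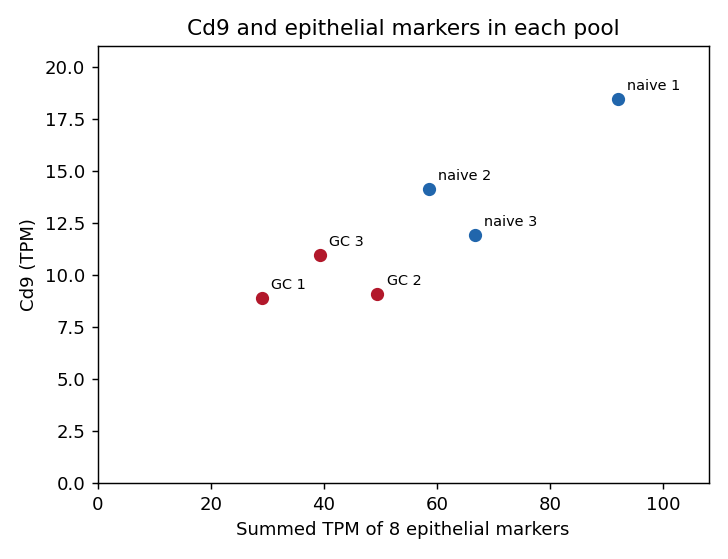
Cd9 (TPM, vertical axis) against the summed TPM of 8 epithelial marker genes (horizontal axis) in each of the 6 pools, with GC pools in red and naive pools in blue. Naive replicate 1 holds the highest values of both (18.4 and 92.0 TPM) and GC replicate 1 the lowest of both (8.89 and 29.0 TPM), while replicates 2 and 3 of each population stand in opposite order on the axes.

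The immature markers Cd93 and Cd24a moved in opposite directions and stood at opposite ends of the range of expression. Cd93 (ENSMUSG00000027435, chr2:148436651-148443535), which encodes the transmembrane lectin recognized by the AA4.1 antibody, was weak in both populations, with 0.758, 0.803 and 0.669 TPM across the GC pools and 3.82, 3.82 and 3.36 TPM in the naive pools. It was lower in GC B cells by 1.42 log2 units (difference -1.42, SE 0.119, adjusted p = 8.16e-05 in limma). The 5 endothelial markers, which could accompany Cd93, summed to between 1.21 and 1.49 TPM in GC and to between 0.756 and 1.41 TPM in naive pools, and the receptor gene Kdr was listed at 0 in all 6 pools. The 7 macrophage and monocyte markers summed to between 1.11 and 2.77 TPM in GC pools. In naive pools their sum was higher, between 4.11 and 7.57 TPM, as Cd93 was. The part of RNA from other cells in the Cd93 difference was not tested. Cd24a (ENSMUSG00000047139, chr10:43579169-43584265), which encodes the heat stable antigen, a small mucin-like protein held by a glycosylphosphatidylinositol (GPI) anchor, ranked between 191 and 241 among all genes in every pool. It was at 712, 743 and 733 TPM across the GC pools and at 522, 523 and 561 TPM in the naive pools. The increase in GC B cells was 1.36-fold, or 0.45 on the log2 scale (SE 0.0429, adjusted p = 0.00015 in limma).

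Nt5e (ENSMUSG00000032420, chr9:88327609-88372089) was the one gene of the 10 with a large increase. It was at 44.5, 50.7 and 49.7 TPM across the GC pools, and at 0.473, 0.397 and 0.387 TPM in the naive pools, where these values stand for about 10 to 16 reads each. The ratio of means was 115 and between single pools it was 94.1 to 131. The log2 difference was 5.12 (SE 0.0964, adjusted p = 2.11e-07 in limma), larger in size than that of 99.3% of the genes tested. In naive B cells Nt5e was the lowest of the 10 genes, and in GC B cells it stood in the fifth place, between Fcer2a and Cd9, with no overlap of pool ranges on either side.

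The broadly expressed genes moved in opposite directions. Ms4a1 (ENSMUSG00000024673, chr19:11249679-11266149), which encodes CD20, was at 906, 956 and 931 TPM across the GC pools and at 722, 722 and 708 TPM in the naive pools. This increase of 1.30-fold (0.38 on the log2 scale, SE 0.0356, adjusted p = 0.00014 in limma) was larger than the spread between pools. Cd37 (ENSMUSG00000030798, chr7:45233632-45239340), which encodes a tetraspanin of mature B cells, was the highest of the 10 in both populations. It was at 1125, 1169 and 1138 TPM across the GC pools and at 2205, 2392 and 2285 TPM in the naive pools, a ratio of means of 2.01 (95% interval of the log2 difference -1.10 to -0.90, adjusted p = 3.51e-06 in limma).

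**Figure D3:**
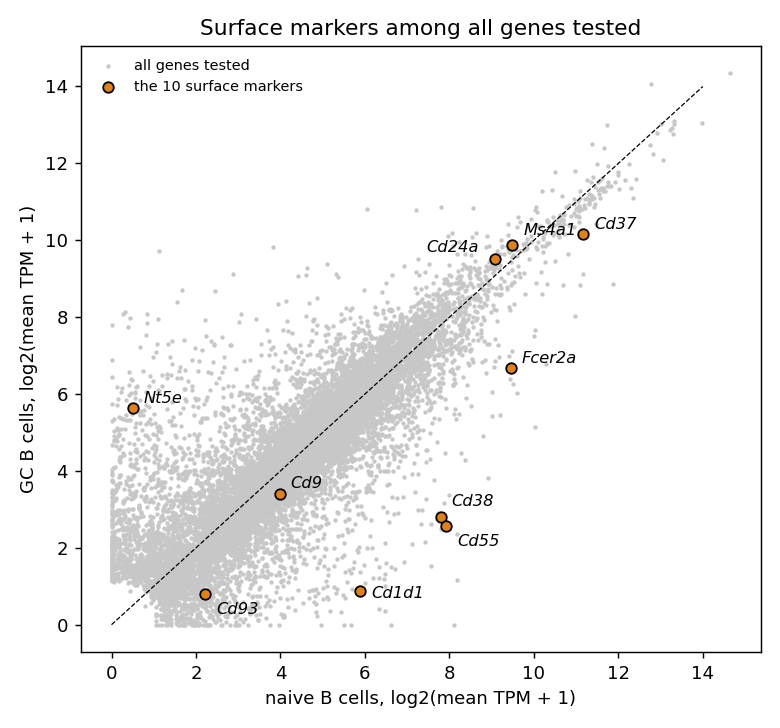
Mean expression in GC B cells against naive B cells for all 12785 genes tested (grey), on log2(mean TPM + 1) axes, with the 10 surface marker genes in orange and the line of equal expression dashed. Cd38, Cd55 and Cd1d1 lie far below the line, Nt5e far above it, and Ms4a1, Cd24a and Cd37 lie near it at the upper end.

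The 10 transcripts together amounted to between 2917 and 3040 TPM in GC pools and to between 4699 and 4907 TPM in naive pools. Cd37, Ms4a1 and Cd24a made up 94.0% to 94.4% of this sum in GC pools and 73.4% to 74.9% in naive pools. Ordered by level, naive B cells had Cd37 first, followed by Ms4a1 and Fcer2a, whose ranges overlapped (708 to 722 and 680 to 715 TPM), Cd24a, Cd55 and Cd38, also overlapping, Cd1d1, Cd9, Cd93 and Nt5e. In GC B cells the order was Cd37, Ms4a1, Cd24a, Fcer2a, Nt5e, Cd9, Cd38, Cd55, Cd1d1 and Cd93, where Cd38 overlapped Cd55 and Cd1d1 overlapped Cd93. Fcer2a thus stood at the level of Ms4a1 in naive B cells and far below it in GC B cells, at 101 ± 5.10 TPM (SD, n = 3).

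The genes whose profile over the 6 pools was nearest to that of Cd55 were Ccr7, Pml and S1pr1, with root mean square differences of 0.0958, 0.157 and 0.183 between log2(TPM + 1) profiles centred on their means. Ccr7, a chemokine receptor of naive lymphocytes, was at 1.25, 1.15 and 0.627 TPM across the GC pools and at 88.4, 95.6 and 78.8 TPM in the naive pools. In both populations the third replicate was the lowest, as for Cd55, Pml and S1pr1. S1pr1, a receptor for sphingosine-1-phosphate, averaged 4.57 TPM in GC B cells and 222 TPM in naive ones. Nearest to Nt5e were the decoy chemokine receptor gene Ccrl1 (0.0651) and the kinesin genes Kif18b (0.0774) and Kif22 (0.0781). Ccrl1 was at 40.5, 39.8 and 41.9 TPM across the GC pools and at 0.230, 0.137 and 0.142 TPM in the naive pools. Like Nt5e, Ccrl1 and Kif18b passed the filter only through the GC pools. These likenesses rest mostly on the difference between the populations and are given as a description.

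The ectoenzymes were examined together with other enzymes, receptors and transporters of purines and NAD. Of 19 such genes measured beside Cd38 and Nt5e, 11 were tested, and 5 rose and 6 fell in GC B cells, with a median log2 difference of -0.75 against 0.03 over all genes tested. Entpd1 (CD39), an ectoenzyme that produces AMP, on which CD73 acts, fell from 33.6, 26.0 and 34.5 TPM in naive pools to 0.344, 1.14 and 0.307 TPM in GC pools (log2 difference -4.37, adjusted p = 8.72e-06 in limma). Ada, the deaminase that turns adenosine into inosine, rose from 5.13, 4.69 and 6.21 TPM in naive pools to 126, 128 and 118 TPM in GC pools (4.31, adjusted p = 3.54e-07 in limma).

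Entpd1 and Ada therefore moved in opposite directions. Further genes of this list were chosen after their values were seen. Enpp1, which also yields AMP, rose as Ada did (82.8 ± 2.90 TPM in GC, 22.5 ± 0.142 in naive B cells, SD, n = 3 each). The purine-handling genes Adk, Pnp and Slc29a1 rose by 2.08, 1.38 and 1.35 log2 units, whereas Slc29a2 fell (0.804 ± 0.318 TPM in GC, 2.02 ± 0.327 in naive B cells, SD, n = 3 each). Adora2a, an adenosine receptor, was at 0.752 ± 0.184 TPM in GC B cells and 8.39 ± 1.53 TPM in naive ones (SD, n = 3 each). It passed the filter only through the naive pools. Dpp4, a membrane peptidase that binds adenosine deaminase in humans and is also found on gut epithelium, was at 3.97, 1.14 and 0.599 TPM in GC and at 40.5, 41.0 and 31.1 TPM in naive pools. Bst1, the paralog of Cd38, was weak, at 0.958 ± 0.536 and 2.93 ± 1.33 TPM (SD, n = 3 each, adjusted p = 0.0407 in limma).

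**Figure D4:**
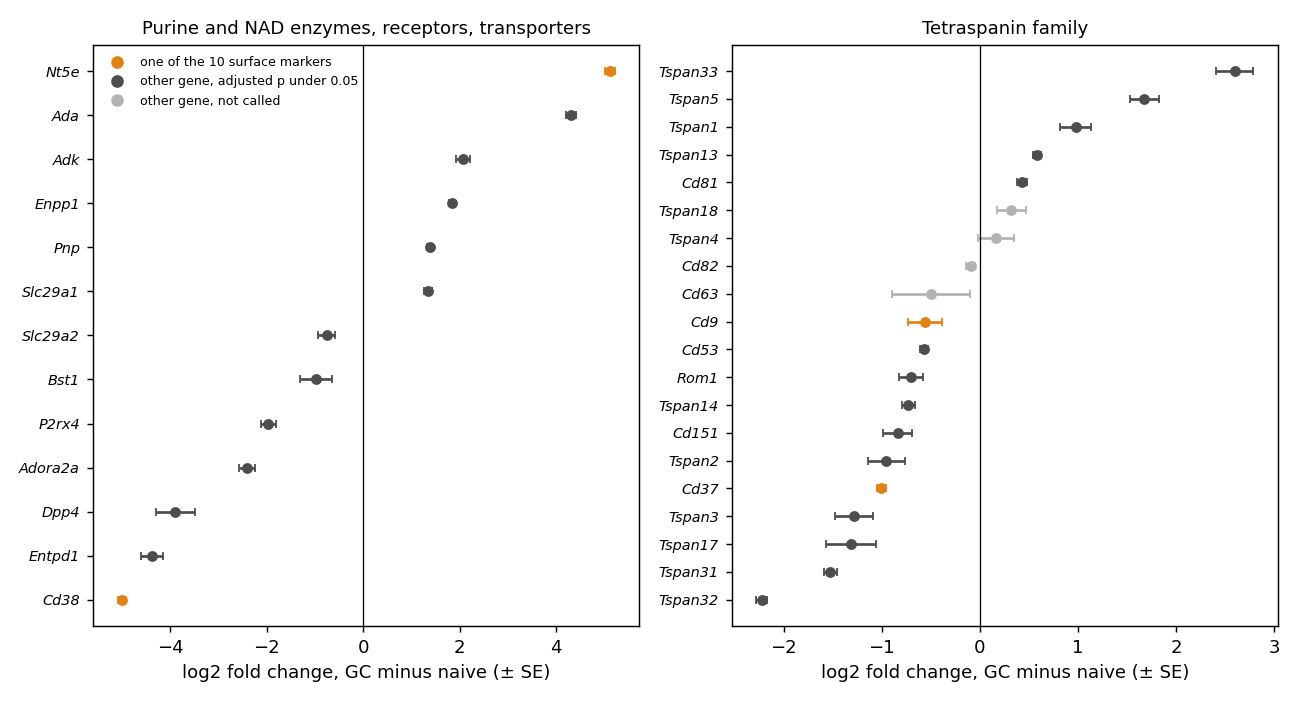
Log2 fold change of GC minus naive B cells on the log2(TPM + 1) scale, with the SE as bars, for the tested purine and NAD genes (left) and tetraspanins (right), with surface marker genes in orange, other called genes in dark grey and genes not called in light grey. Nt5e (5.12) and Ada (4.31) lie at the right end and Cd38 (-5.00) and Entpd1 (-4.37) at the left end, while the tetraspanins range from -2.22 (Tspan32) to 2.60 (Tspan33).

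Of 29 other tetraspanins measured, 18 were tested, of which 5 rose, 9 fell and 4 were not called (median log2 difference -0.53). Tspan32 fell most, from 148 ± 1.77 to 31.0 ± 1.61 TPM (SD, n = 3 each, log2 difference -2.22, adjusted p = 3.89e-07 in limma), and Tspan33 rose most, from 0.306 ± 0.283 to 6.81 ± 0.718 TPM (2.60, adjusted p = 4.29e-05). Tspan33 passed the filter only through the GC pools. Cd81, a tetraspanin of B cells, rose by 0.43 log2 units, while Cd53 fell by 0.57, and both were named after their values were seen. The difference of Cd37 was within this range. Of 14 other MS4A genes measured, 5 were tested, 4 fell and none rose (median log2 difference -1.62), and the remaining one, Ms4a10, was at 0.979 ± 0.461 TPM in GC B cells and 1.49 ± 0.0527 TPM in naive ones (SD, n = 3 each). Ms4a4c fell most, from 231 ± 16.4 to 7.99 ± 3.58 TPM (SD, n = 3 each, -4.76, adjusted p = 1.22e-05 in limma). The other MS4A genes were at most 13.3 TPM in any GC pool (Ms4a6b in replicate 2).

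The genes around CD23 were mostly lower in GC B cells. Of 10 tested genes for its shedding and induction, 6 fell, 1 rose and 3 were not called (median log2 difference -0.65). Notch2, the receptor that drives marginal zone development, fell from 69.7 ± 5.22 to 5.59 ± 0.236 TPM (SD, n = 3 each, -3.42, adjusted p = 3.71e-07 in limma). Il4ra, Il2rg and Stat6, through which IL-4 induces CD23, had log2 differences of -1.45, -1.72 and -1.18 and were named after their values were seen. Adam10, the protease that releases CD23 from the membrane, rose slightly, from 44.9 ± 1.76 to 55.1 ± 1.83 TPM (0.29, adjusted p = 0.00394 in limma).

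Among 16 genes measured beside Cd1d1 for the loading and traffic of CD1d, 15 were tested, of which 8 fell, 3 rose and 4 were not called (median log2 difference -1.26). Gm2a, a lipid transfer protein, fell from 100.5 ± 3.90 to 14.9 ± 0.862 TPM (SD, n = 3 each, -2.68, adjusted p = 3.95e-07 in limma), and Ap3s1, a subunit of the adaptor that sorts CD1d to lysosomes, rose from 7.86 ± 0.821 to a mean of 19.5 TPM (1.21, adjusted p = 7.97e-05). B2m, the light chain of CD1d and of class I molecules, and Psap, the precursor of the saposins, had log2 differences of -2.26 and -2.34 and were named after their values were seen.

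Complement genes did not share one direction. Of 16 measured beside Cd55, 7 were tested, of which 3 rose, 2 fell and 2 were not called (median log2 difference 0.37). Cd59a, which blocks the membrane attack complex, rose from 0.329 ± 0.225 to 5.73 ± 0.818 TPM (SD, n = 3 each, 2.35, adjusted p = 5.06e-05 in limma) and passed the filter only through the GC pools. Cr2, the receptor for C3 fragments and in humans a ligand of CD23, fell from 185 ± 12.0 to 47.7 ± 3.86 TPM (-1.94, adjusted p = 3.03e-06). The near-identical neighbour of Cd55, Cd55b, was at most 0.903 TPM.

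Of 9 genes for binding partners of the 10 proteins, 5 were tested and 4 fell, with Igsf8 not called (median log2 difference -1.94). Cr2 is among the 4 and was already counted with the complement genes. The greatest fall was in Adgre5, also listed as Cd97, which encodes a receptor for CD55. It was at between 11.7 and 14.7 TPM across the GC pools and at 470, 543 and 441 TPM in the naive ones (-5.10, adjusted p = 2.81e-07 in limma). The genes for the receptor and for its ligand CD55 were thus both strongly lower in GC B cells. Pecam1, a ligand of CD38, was at 23.3 ± 1.22 and 126 ± 5.55 TPM (SD, n = 3 each), and Siglecg, which binds CD24, at 205 ± 2.96 and 302 ± 25.2 TPM, and both were named after their values were seen.

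Of 27 other subset genes measured, 20 were tested, and 15 fell, 4 rose and 1 was not called (median log2 difference -1.42). Cr2 and Notch2, already counted in lists above, are among the 15. Cd80, which is used with CD73 to define memory B cells, rose from 0.571 ± 0.276 to 3.90 ± 0.244 TPM (SD, n = 3 each, 1.65, adjusted p = 0.000198 in limma) and passed the filter only through the GC pools. Pdcd1lg2 (PD-L2), a further memory marker, was at 2.66 ± 0.818 TPM in GC B cells and 12.3 ± 0.683 TPM in naive ones, opposite to Nt5e and Cd80. Ccr6 and Hhex, linked to memory B cells, had log2 differences of -3.86 and -4.30. Of genes of early B cell stages, Rag2 was listed at 0 in all 6 pools, Vpreb1 was at most 0.459 TPM, and Vpreb3 was at 203 ± 6.95 and 317 ± 22.5 TPM. The last 6 genes were named after their values were seen.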

How the data were processed

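RNA-Seq libraries came from 6 pools of sorted Peyer's patch B cells. The authors removed adapters with cutadapt 1.9, quantified reads on the mouse transcriptome (NCBIm38) with RSEM 1.2.25 and deposited FPKM values with 2 decimals. FPKM depends on the transcript length assigned by RSEM, which also divides reads between near-identical genes. FPKM was rescaled to TPM by the total of each pool.

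The populations were tested on log2(TPM + 1) by limma (version 3.58.1, R 4.3.3, moderated with a mean trend). The 12785 genes that reached 1 TPM in 3 or more pools were kept, with Benjamini-Hochberg adjustment over all of them. A fold change on this scale understates the change of low genes. Per the study's methods each replicate is a pool of 5 mice. Whether GC and naive pools with the same number share mice is not stated. Read numbers of single genes use the longest transcript of the reference annotation and the approximate depths, and are rough. Symbols were found for 33398 identifiers. Promoters and gene coordinates are RefSeq's, on GRCm38.p6.

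Named genes are the 10 members, the gene with the largest called change in each direction of each related list, the 3 genes most like the members with the largest rise and fall, and markers of other cells above 10 TPM. Members and lists were chosen with earlier results of these data known. Other genes are marked as named after their values were seen, except Igsf8, Ms4a10, Ms4a6b, Cd1d2 and Cd55b, which are also outside this rule. The markers that check the sorted populations (Bcl6, S1pr2 and Cd79a) and the low markers of other cells were likewise named after their values were seen. Some genes that the rule names are not reported here. Python 3.11.15 with pandas 2.3.3, numpy 2.4.6 and matplotlib 3.10.9 was used for the remaining steps.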

Additional observations from a re-analysis of the deposited data

How the results depend on the processing

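Under 15 other settings, 149 values were computed for the 10 members. The sign held in each of them, and 144 stayed on the same side of the threshold. The 5 that did not were all of Cd9, whose adjusted p lay between 0.0101 and 0.0757. Cd93 could not be tested with a filter of 5 TPM in 3 pools. The number of members called was between 9 and 10, the number of related genes called between 83 and 93, and the number of all genes called between 7180 and 8639 (7656 to 8101 when 1 pool was left out). The pseudocount moved the lowest genes most, to 6.82 for Nt5e and -6.14 for Cd1d1 at 0.01. Of all calls, 54.1% were higher in GC B cells, against 47.8% after quantile normalization and 49.7% after median-of-ratios scaling. Deviations of pools with the same number correlated weakly across genes (r of 0.0830, 0.0225 and 0.0456), none over 0.1, though 5 of 6 pools correlated best with their own number, and the numbers were not taken as pairs. With the replicate number as a block, 7960 genes and 9 members were called, and Cd9 was at adjusted p = 0.0571 in limma. Low reads limit Cd1d1 and Cd93 in GC pools and Nt5e in naive pools.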

Other observations

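Cd24a, Cd55 and Nt5e encode proteins held in the membrane by a GPI anchor. Of 27 genes measured that build or remodel this anchor, 26 were tested, of which 14 fell, 3 rose and 9 were not called in GC B cells (median log2 difference -0.27, against 0.03 over all genes tested). Dpm1, a subunit of dolichol-phosphate mannose synthase, fell from 67.5 ± 3.46 to 28.1 ± 8.81 TPM (SD, n = 3 each, -1.28, adjusted p = 0.00223 in limma), with 19.0, 28.7 and 36.6 TPM in GC replicates 1, 2 and 3. Gpaa1, a subunit of the transamidase that attaches the anchor, rose from 46.4 ± 5.19 to 73.1 ± 7.30 TPM (0.65, adjusted p = 0.00205). Piga, which acts in the first step of synthesis, was at 8.60 ± 0.653 TPM in GC B cells and 7.28 ± 0.823 TPM in naive ones (adjusted p = 0.137) and was named after its values were seen.

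Of the 10 housekeeping genes checked, 4 were higher, 2 lower and 4 not called in GC B cells, against 65.6% called among all genes tested. Their median log2 difference was 0.08, but single genes went from -0.53 (Rpl13a) to 1.54 (Gapdh), and both were named after their values were seen.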
